A study of Homo sapiens with 9 samples.

Results

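Expression of 8 liver-enriched transcription factors (HNF4A, FOXA1, FOXA2, FOXA3, CEBPA, ONECUT1, PROX1 and NR5A2) was examined in PLC/PRF/5, a human hepatocellular carcinoma line. The factors were chosen by name as regulators of hepatocyte identity, and all 8 were found among the 58219 gene identifiers of the count files and among the 14617 genes tested. All samples came from stable lines that expressed YES, a Src family tyrosine kinase, and all had received dasatinib at 100 nM. In 4 samples YES was wild type (WT), and in 5 it was the T348I mutant, altered at the gatekeeper residue beside the pocket that binds the drug. No untreated sample was analysed here, and the labels do not say whether a line is a clone or a pool. Polyadenylated RNA was sequenced with a stranded kit, and each sample held 10381142 to 15799059 reads in genes.

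Hepatocyte identity is held by a small network of transcription factors that bind one another's genes as well as those of plasma proteins and metabolic enzymes. FOXA proteins are forkhead factors that open liver chromatin, HNF4A and NR5A2 (LRH-1) are nuclear receptors, CEBPA is a leucine zipper factor that promotes hepatocyte maturation and restrains division, and ONECUT1 (HNF6) and PROX1 are homeodomain proteins of early liver development. In hepatocellular carcinoma, loss of HNF4A and CEBPA is known to accompany dedifferentiation.

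The promoters of the 4 factors whose levels separated the groups are shown first, because all 4 were lower in T348I samples. RefSeq promoter entries (GRCh38.p14) matched 6 of the 8 factors by symbol (not FOXA2 or PROX1), and each sequence below gives the 250 bases before a RefSeq start site, 5′ to 3′ on the gene's strand. Capitals mark letters matched to any of 8 searched motifs on either strand, and no matches overlapped.
CEBPA, chr19:33302535-33302784, minus strand: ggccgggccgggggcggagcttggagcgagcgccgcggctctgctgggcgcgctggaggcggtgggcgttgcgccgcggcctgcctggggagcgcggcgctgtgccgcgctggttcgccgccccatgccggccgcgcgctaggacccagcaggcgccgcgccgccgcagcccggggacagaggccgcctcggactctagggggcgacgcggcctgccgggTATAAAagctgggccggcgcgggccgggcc
ONECUT1, chr15:52790337-52790586, minus strand: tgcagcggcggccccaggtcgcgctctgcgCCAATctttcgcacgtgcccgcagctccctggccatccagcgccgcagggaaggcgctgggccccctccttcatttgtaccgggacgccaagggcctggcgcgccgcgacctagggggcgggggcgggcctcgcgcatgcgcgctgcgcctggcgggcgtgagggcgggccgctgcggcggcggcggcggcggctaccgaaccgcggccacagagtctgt
NR5A2, earlier start, chr1:200027460-200027709, plus strand: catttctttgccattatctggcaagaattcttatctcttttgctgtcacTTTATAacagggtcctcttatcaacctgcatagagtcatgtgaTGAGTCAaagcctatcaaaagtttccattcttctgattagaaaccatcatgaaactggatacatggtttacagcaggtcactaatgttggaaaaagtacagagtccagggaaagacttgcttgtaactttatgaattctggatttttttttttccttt
NR5A2, later start, chr1:200042341-200042590, plus strand: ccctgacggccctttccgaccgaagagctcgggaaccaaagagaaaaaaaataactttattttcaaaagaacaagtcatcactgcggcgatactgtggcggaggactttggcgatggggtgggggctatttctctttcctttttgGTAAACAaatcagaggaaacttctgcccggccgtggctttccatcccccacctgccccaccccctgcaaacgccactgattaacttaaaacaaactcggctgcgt
HNF4A, upstream start, chr20:44355449-44355698, plus strand: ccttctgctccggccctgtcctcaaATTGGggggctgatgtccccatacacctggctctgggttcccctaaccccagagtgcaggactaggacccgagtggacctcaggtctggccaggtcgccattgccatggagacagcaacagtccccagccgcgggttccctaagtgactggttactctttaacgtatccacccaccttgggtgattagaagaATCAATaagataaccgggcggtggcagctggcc
HNF4A, downstream start, chr20:44400989-44401238, plus strand: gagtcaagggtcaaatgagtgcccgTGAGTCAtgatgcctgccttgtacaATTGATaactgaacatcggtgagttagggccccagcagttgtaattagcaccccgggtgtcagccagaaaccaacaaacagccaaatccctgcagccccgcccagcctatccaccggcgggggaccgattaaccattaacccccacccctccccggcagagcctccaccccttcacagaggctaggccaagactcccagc
The motifs were the TATA box (TATAAA), the CCAAT box (CCAAT), and core letters bound by C/EBP (TTGCNNAA), forkhead proteins (TGTTTAC), HNF6 (ATCAAT), HNF4 (CAAAGTCCA), LRH-1 (CAAGGTCA) and AP-1 (TGANTCA). In CEBPA the capitals are a TATA box that begins 30 bases before the RefSeq start, a motif held by 10.7% of 35116 promoter windows of this length. ONECUT1 held a CCAAT box (32% of windows), the earlier NR5A2 start a reverse TATA box and an AP-1 match (6.57%), and the later NR5A2 start forkhead letters on the reverse strand (2.98%). Both HNF4A windows held the HNF6 core (5.58% of windows), forward at the upstream start and reverse at the downstream start. The upstream HNF4A window also held a reverse CCAAT box, and the downstream window an AP-1 match. Such matches were not confined to factors called lower. Of the windows not printed, that of FOXA3, which was not called, held a forward TATA box 30 bases before its start and an AP-1 match. The window of FOXA1, called lower, held 0 matches. No C/EBP, HNF4 or LRH-1 letters were found in the windows of any of the 6 factors, where 9.05%, 0.325% and 1.14% of all windows hold them. A match describes letters only, and counts per gene do not tell which HNF4A or NR5A2 start was used. The GENCODE 29 annotation, used for the gene positions below, places some starts elsewhere. Its exons cover 30 bases of the CEBPA window and 108 of the earlier NR5A2 window. The ONECUT1 window lies wholly inside the gene by that annotation, outside its exons.

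Sample titles spell the drug as dasatinib (3 samples per group) or as Dasa (1 WT and 2 T348I samples). These 2 sets stood apart, with 7.38% to 9.44% of gene reads on the mitochondrial chromosome in the dasatinib set and 15.2% to 17.0% in the Dasa set. The set was a term in the model. In CPM (reads of a gene scaled to the size of its library), YES1 itself stood at 354 ± 13.2 (SD, n = 4) with WT and at 749 ± 233 (SD, n = 5) with T348I, and the groups did not overlap. The count cannot separate introduced from endogenous YES1. Nothing in the labels says that samples came from separate cultures, so the spread behind each p-value is that between these samples and may be technical.

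T348I samples held less of 5 of the 8 factors, and none was called higher. CEBPA changed by -39.6%, ONECUT1 by -32.3%, NR5A2 by -22.3%, HNF4A by -15.8% and FOXA1 by -12.8%, while FOXA2, FOXA3 and PROX1 did not pass the test. Over all genes 42.5% were called, 21.8% lower and 20.7% higher. The median log2 fold change, T348I over WT, was -0.22 for the 8 factors and -0.0077 for all genes tested. For 4 factors every T348I sample lay below every WT sample, as did 9.41% of all genes, and for none did every T348I sample lie above, as did 10.2% of all genes. Summed over the 8 factors, levels were 539 to 649 CPM in WT and 488 to 510 CPM in T348I samples. In RNA from whole cultures, fewer cells with a transcript and less of it per cell cannot be told apart. Without WT Dasa replicate 1, 4 factors were called lower (FOXA1 was lost) and PROX1 was called higher, where 16.5% of all genes were lower and 18.3% higher. The median of the 8 factors was then -0.12, and that of all genes 0.0029.

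**Figure D1:**
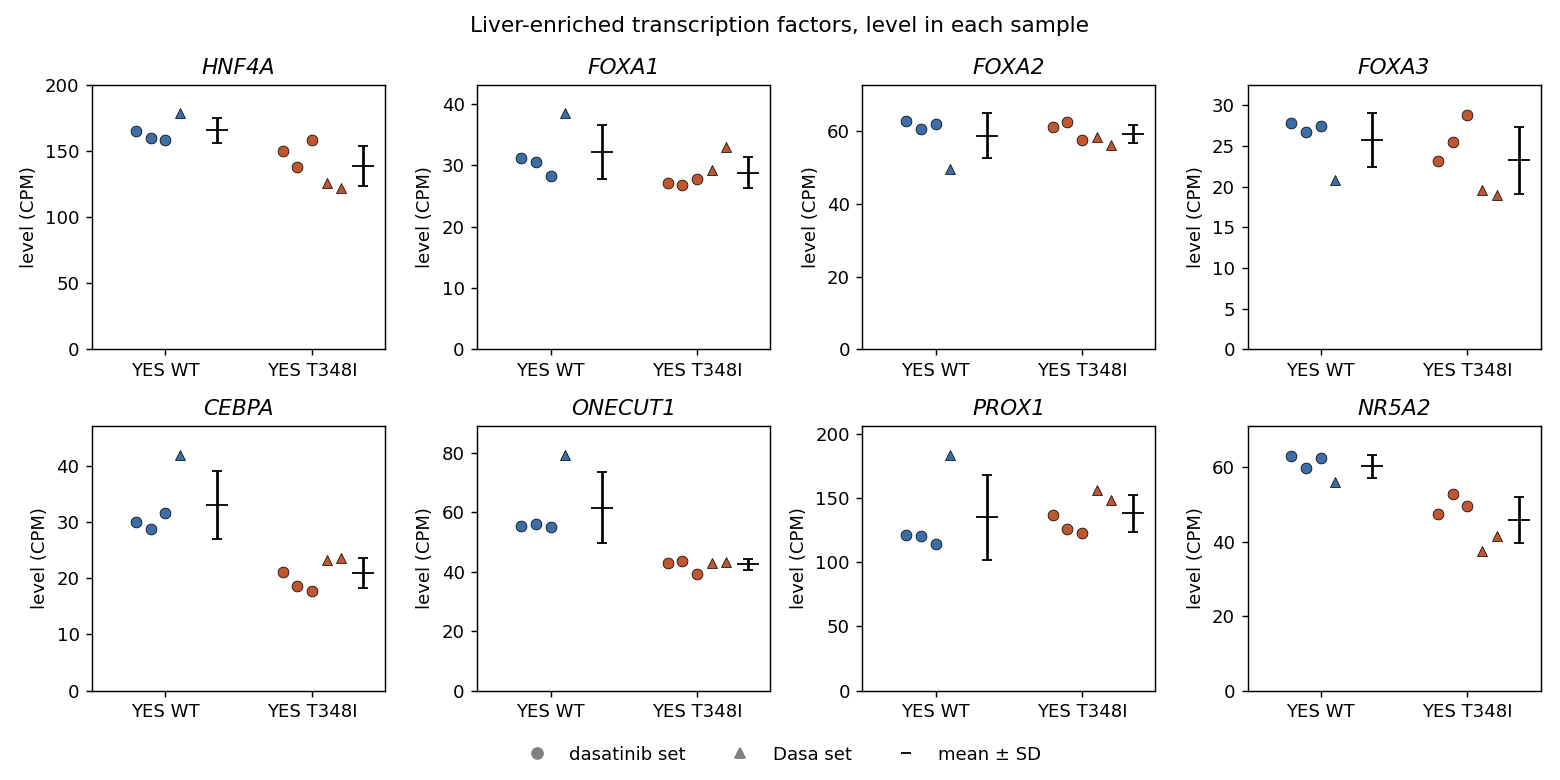
Level of each factor (CPM, vertical axes from 0) in the 4 WT and 5 T348I samples; circles are the dasatinib set, triangles the Dasa set, and bars give the mean ± SD. CEBPA, ONECUT1 and NR5A2 separate the groups clearly and HNF4A narrowly (158.4 against 158.2 CPM). The WT Dasa sample stands above the other WT samples for HNF4A, FOXA1, CEBPA, ONECUT1 and PROX1, and below them for FOXA2, FOXA3 and NR5A2.

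CEBPA (ENSG00000245848.2, chromosome 19, 33299934 to 33302564 in GRCh38, minus strand, protein-coding) changed most. WT dasatinib replicates 1 to 3 held 29.9, 28.7 and 31.7 CPM and WT Dasa replicate 1 held 42.0, from 314 to 554 reads. T348I dasatinib replicates held 21.1, 18.7 and 17.6 CPM and T348I Dasa replicates 23.2 and 23.6. The highest T348I sample thus lay below the lowest WT sample, and within each set the groups were separate too. CEBPA thus had a log2 fold change of -0.73 ± 0.0629 (SE; edgeR adjusted p = 1.99e-08). The fold was -0.66 in the dasatinib set and -0.84 in the Dasa set, and the difference between the sets did not pass its test (edgeR adjusted p = 0.436).

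CEBPA shares its locus with noncoding genes. CEBPA-DT (ENSG00000267296.2, 33302857 to 33305054, plus strand) starts 293 bases from CEBPA and runs the other way, so that most of the CEBPA window printed above lies between the starts of both genes. It was transcribed at a low level, 21 to 67 reads per sample. It fell by 0.65 on the log2 scale (edgeR adjusted p = 0.00549), from 3.91 ± 0.733 CPM (SD, n = 4) in WT to 2.45 ± 0.392 CPM (SD, n = 5) in T348I samples. The groups were separate only narrowly, with the lowest WT sample at 2.87 CPM and the highest T348I sample at 2.84 CPM. The antisense genes AC008738.3 and AC008738.5 overlap CEBPA and held 0 to 2 and 3 to 12 reads. Reads that fall in both genes count for neither when strand is ignored. Counted that way, CEBPA kept 32.9% of its sense reads and had a log2 fold change of -0.78.

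ONECUT1 (ENSG00000169856.8, chromosome 15, 52756989 to 52791078, minus strand, protein-coding), the homeodomain factor HNF6, stood at 55.3, 56.1 and 55.0 CPM in WT dasatinib replicates 1 to 3. WT Dasa replicate 1 held 79.4 CPM. T348I samples were nearly level across sets, at 42.9, 43.7 and 39.3 CPM in the dasatinib replicates and 43.0 and 43.4 in the Dasa replicates. Every T348I sample lay below every WT sample. ONECUT1 thus had a log2 fold change of -0.56 ± 0.0678 (SE; edgeR adjusted p = 1.72e-06). The fold differed between the sets, -0.40 in the dasatinib set and -0.88 in the Dasa set (difference -0.48, edgeR adjusted p = 0.000347). The Dasa set holds 1 WT sample, so the fold there has no spread of its own in WT.

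NR5A2 (ENSG00000116833.13, chromosome 1, 200027602 to 200177424, plus strand, protein-coding) encodes LRH-1, a nuclear receptor of bile acid and cholesterol metabolism. It stood at 63.0, 59.9 and 62.4 CPM in WT dasatinib replicates and 56.2 in the WT Dasa replicate. T348I dasatinib replicates held 47.5, 52.7 and 49.8 CPM and T348I Dasa replicates 37.5 and 41.6. The groups did not overlap, and the Dasa samples were the lowest of each group. NR5A2 thus had a log2 fold change of -0.36 ± 0.0514 (SE; edgeR adjusted p = 1.16e-05). The fold was -0.30 in the dasatinib set and -0.51 in the Dasa set (edgeR adjusted p of the difference = 0.211).

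HNF4A (ENSG00000101076.16, chromosome 20, 44355700 to 44434596, plus strand, protein-coding), the nuclear receptor at the centre of the network, fell less. WT dasatinib replicates held 165, 160 and 158.4 CPM and the WT Dasa replicate 179. T348I dasatinib replicates held 150.1, 138 and 158.2 CPM and T348I Dasa replicates 126 and 122. The separation in the dasatinib set was narrow and that in the Dasa set wide. HNF4A thus had a log2 fold change of -0.25 ± 0.0588 (SE; edgeR adjusted p = 0.00209). The fold was -0.12 in the dasatinib set and -0.52 in the Dasa set, a difference of -0.40 (edgeR adjusted p = 0.000335). Without WT Dasa replicate 1 the fold was -0.12 (edgeR adjusted p = 0.0279), and without the set term the call was lost (-0.25, edgeR adjusted p = 0.0659). HNF4A-AS1, the antisense gene within it, had 0 to 3 reads.

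**Figure D2:**
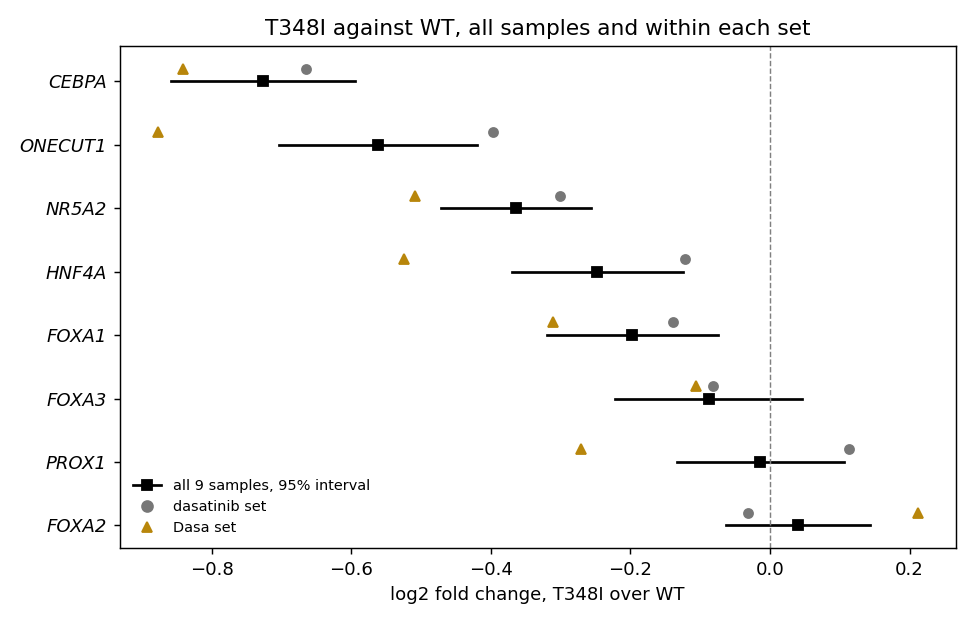
Log2 fold change of each factor, T348I over WT (horizontal axis), from all 9 samples (squares, with 95% intervals) and within the dasatinib set (circles) and the Dasa set (triangles, which rest on 1 WT sample). CEBPA, ONECUT1, NR5A2, HNF4A and FOXA1 lie below 0 in both sets, while PROX1 lies at 0.11 in one and -0.27 in the other.

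Of the 3 FOXA genes, which encode closely related forkhead proteins, FOXA1 passed the test and FOXA2 and FOXA3 did not, and differences between these genes were not tested. FOXA1 (ENSG00000129514.5, chromosome 14, 37589984 to 37596059, minus strand) stood at 31.2, 30.5, 28.3 and 38.5 CPM in WT samples (the last in the Dasa set) and 27.1, 26.8, 27.8, 29.2 and 33.0 CPM in T348I samples (the last 2 in the Dasa set). The groups overlapped overall but not within either set. FOXA1 thus had a log2 fold change of -0.20 ± 0.0587 (SE; edgeR adjusted p = 0.0106). The call was lost without WT Dasa replicate 1 (-0.13) and without the set term (-0.16). In the dasatinib set FOXA1 did not pass the test (-0.14, edgeR adjusted p = 0.109).

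FOXA2 (ENSG00000125798.14, chromosome 20, 22581005 to 22585455, minus strand) was nearly level, at 62.9, 60.5, 62.0 and 49.6 CPM in WT samples and 61.2, 62.5, 57.6, 58.4 and 56.3 CPM in T348I samples. The groups overlapped, with WT Dasa replicate 1 the lowest. Its log2 fold change was 0.040, with a 95% interval from -0.063 to 0.14 (edgeR adjusted p = 0.543), and turned to -0.026 without WT Dasa replicate 1. An annotated gene on the same strand, AL121722.1, overlaps FOXA2 and had 0 reads in every sample. Reads shared by both genes count for neither, so the FOXA2 level is uncertain. The noncoding gene LINC00261, which lies downstream of FOXA2, had 0 to 1 read. AL121722.1 overlaps LINC00261 on the same strand as well, so that count is also uncertain and does not show the gene to be silent.

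FOXA3 (ENSG00000170608.2, chromosome 19, 45863989 to 45873797, plus strand) stood at 27.9, 26.7, 27.5 and 20.8 CPM in WT samples and 23.2, 25.5, 28.8, 19.6 and 18.9 CPM in T348I samples. The Dasa samples were the lowest of both groups. Its log2 fold change was -0.088, with a 95% interval from -0.22 to 0.046 (edgeR adjusted p = 0.287).

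PROX1 (ENSG00000117707.15, chromosome 1, 213983181 to 214041502, plus strand), a homeodomain factor of hepatoblasts and lymphatic endothelium, had opposite signs in the sets. In the dasatinib set, WT samples held 121, 120.4 and 114 CPM and T348I samples 137, 126 and 123, a log2 fold change of 0.11 (edgeR adjusted p = 0.038). In the Dasa set, the WT sample held 184 CPM and T348I samples 156 and 149, a log2 fold change of -0.27 (edgeR adjusted p = 0.000341). The groups were separate within each set and overlapped when the sets were joined. The difference between the sets was -0.38 (edgeR adjusted p = 0.000453), and the joint value of -0.014 with a 95% interval from -0.13 to 0.11 did not pass (edgeR adjusted p = 0.866). PROX1-AS1, on the other strand, stood at 54 to 98 reads per sample and did not pass the test (-0.067).

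Of the 8 factors, 3 (HNF4A, ONECUT1 and PROX1) had a fold that differed between the sets, against 7.33% of all genes in that test. All 3 had the more negative fold in the Dasa set, as 4.19% of all genes did, and none the more positive (3.14% of all genes). Within the dasatinib set 4 factors were called lower (HNF4A, CEBPA, ONECUT1 and NR5A2) and PROX1 higher, where 17.3% of genes were lower and 17.6% higher (35% in all). Within the Dasa set 6 were called lower and FOXA2 higher, where 19.1% were lower and 18.8% higher (37.9% in all), and FOXA3 was called in neither set. In the model with terms for set and group, which averages over the genotypes, 7 of the 8 differed between the sets, where 58.6% of all genes did. Of those, 4 were higher in the Dasa set (29.7% of all genes) and 3 lower (29%). FOXA1, CEBPA, ONECUT1 and PROX1 were higher, by 0.26, 0.38, 0.25 and 0.40 on the log2 scale, and FOXA2 (-0.17), FOXA3 (-0.41) and NR5A2 (-0.26) were lower. HNF4A did not pass that test (-0.093). Such an average can join unlike shifts. From the dasatinib to the Dasa set, mean ONECUT1 went from 55.5 to 79.4 CPM in WT but from 42.0 to 43.2 in T348I samples. Mean HNF4A went from 161 to 179 CPM in WT and from 149 to 124 in T348I samples. The YES1 fold was also larger in the Dasa set, by 0.71 on the log2 scale. The part of YES1 and of the mitochondrial share in these differences was not tested.

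Levels of the 8 factors were compared with one another per length, as CPM per kilobase of exon (GENCODE 29, all exons of a gene merged, which understates genes with many alternative exons). In WT samples HNF4A (22.7 ± 1.26 CPM per kilobase; SD, n = 4) and FOXA2 (22.6 ± 2.38) led. ONECUT1 (16.0 ± 3.11) and PROX1 (15.1 ± 3.68) came next, then CEBPA (12.6 ± 2.31) and FOXA3 (11.7 ± 1.52), and FOXA1 (8.07 ± 1.11) and NR5A2 (7.99 ± 0.410) were lowest. Within each of these 4 pairs, and between PROX1 and CEBPA, the levels differed by less than their spread. In T348I samples FOXA2 (22.7 ± 0.986 CPM per kilobase; SD, n = 5) led HNF4A (19.0 ± 2.10), and PROX1 (15.5 ± 1.60) stood above ONECUT1 (11.0 ± 0.460) by more than the spread. FOXA3 (10.6 ± 1.88) lay within the spread of ONECUT1. CEBPA (7.93 ± 1.01) and FOXA1 (7.23 ± 0.637) differed by less than their spread, and NR5A2 (6.06 ± 0.817) was the lowest.

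The factors' profiles over the 9 samples were compared by the root mean square difference of log2 CPM, each gene centred on its own mean. Among the 8, CEBPA and ONECUT1 were nearest to each other (0.131), followed by HNF4A and NR5A2 (0.145), and FOXA3 and CEBPA were farthest apart (0.46). Among all genes with a symbol and a mean log2 CPM of at least 1, the nearest to CEBPA were ABCC6P1 (0.0629; a pseudogene whose reads are uncertain), RHOU (0.0871) and CDH2 (0.0939). PIEZO2 (0.0685), PRKAB2 (0.0749) and CLTCL1 (0.0814) were nearest to ONECUT1, and LRP11 (0.0425), SRC (0.0425) and GPR137 (0.0465) to NR5A2. For HNF4A they were PRKAR1B (0.0388), FRG1FP (0.0428; a pseudogene as well) and ITGA1 (0.0456). FBXW7 (0.0455), PACS2 (0.0502) and RHBDF1 (0.0509) lay nearest to FOXA1, EXOSC1 (0.0327), TCEA1 (0.0337) and DDX18 (0.0367) to FOXA2, and EOLA2 (0.0391), PYCR1 (0.0518) and MRPS35 (0.0538) to FOXA3. For PROX1 they were IGF2R (0.056), AFDN (0.0616) and GOLGA3 (0.0628). These values are descriptions, and points share libraries and sets.

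The other transcription factors of hepatocytes were examined from a list of 22 genes, of which 18 were tested. Of these, 11 fell and 5 rose, with a median log2 fold change of -0.28, where 21.8% of all genes were lower and 20.7% higher. Without WT Dasa replicate 1 the counts were 9 and 5 (16.5% and 18.3% of all genes). Without the set term 8 fell and 2 rose, where 1116 of the 14617 genes tested were lower and 1234 higher. CREB3L3, a membrane-bound factor of fasting metabolism, fell by 1.02 on the log2 scale (edgeR adjusted p = 3.29e-07), from 31.3 to 41.1 CPM in WT samples to 13.3 to 20.8 in T348I samples. PPARA, the nuclear receptor of fatty acid oxidation, fell by 0.58 (edgeR adjusted p = 3.91e-06), and HHEX, a homeodomain factor of the liver bud, fell by 0.47 (edgeR adjusted p = 1.44e-08). CEBPB, the relative of CEBPA linked to the acute phase response, rose by 0.68 (edgeR adjusted p = 7.38e-11). The following were named after their values were seen: CEBPD (0.35), TBX3 (0.37), ATF5 (0.16) and ESRRA (0.23) also rose, and NR0B2 and ZHX2 did not pass the test. NR1H4, NR1I2, NR1I3 and GATA6 had 0 to 8 reads and were not tested.

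**Figure D3:**
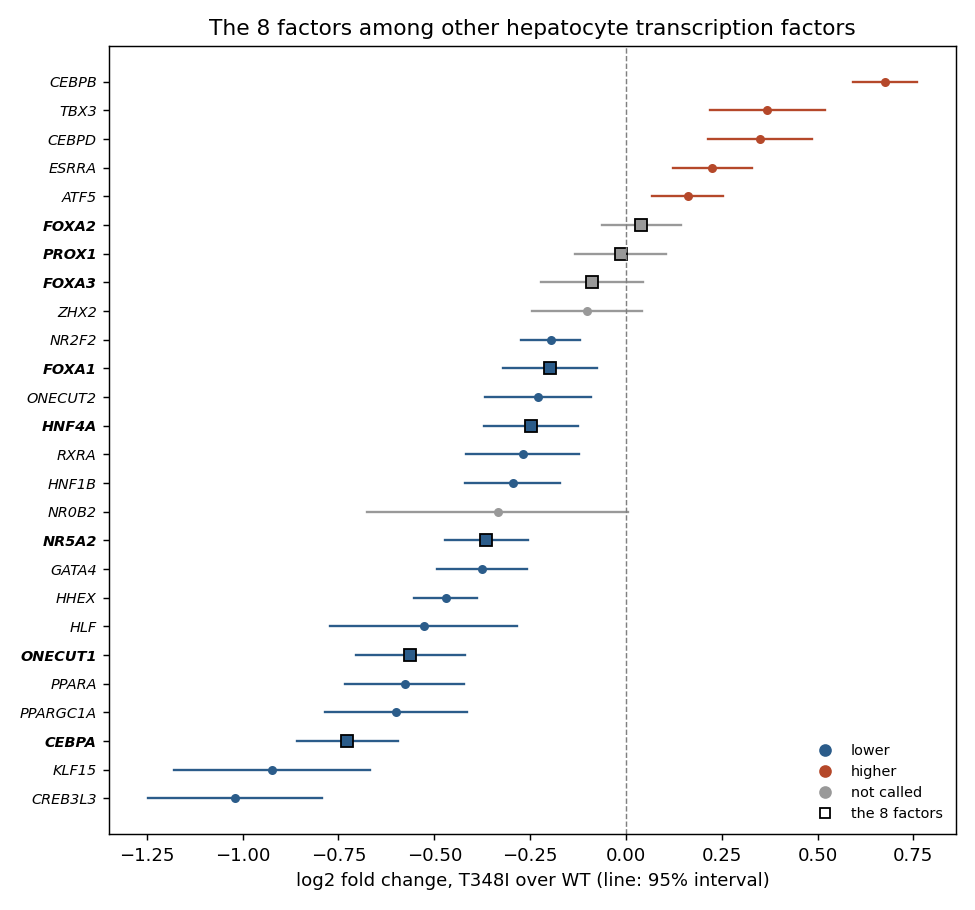
Log2 fold change, T348I over WT, with 95% intervals (lines) for the 8 factors (squares, bold names) and the 18 other tested hepatocyte transcription factors (circles); blue is lower, red higher and grey not called. CEBPB (0.68) and CREB3L3 (-1.02) mark the ends of the range.

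The ratio of CEBPB to CEBPA reads, which does not depend on scaling between samples, was chosen after both values were seen and is given as a description. It was 2.54 to 3.87 in the 4 WT samples and 7.71 to 9.75 in the 5 T348I samples. That the groups did not overlap follows from the separate levels of both genes and adds no evidence.

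The label of the line was checked against markers of hepatocytes and of other cells. Among 11 hepatocyte markers, APOB, SERPINA1, FGB and TF held many reads, each at 313 CPM or more in every sample. ALB stood at 1.16 to 4.66 CPM, TTR at 0 to 5 reads and HP at 0 to 1 read. These levels were not divided by gene length. Of the 9 tested, 6 fell (21.8% of all genes did), and the summed level was 6401 to 9484 CPM in WT and 5720 to 7457 CPM in T348I samples. Without WT Dasa replicate 1, 3 were lower (AFP, APOH and TF) and 3 higher (APOB, SERPINA1 and ASGR1), against 16.5% and 18.3% of all genes. Of 7 cholangiocyte markers 5 were tested, and the summed level was 33.3 to 42.5 CPM in WT and 60.1 to 78.5 CPM in T348I samples. Most of the rise in that sum was KRT19, a keratin of bile ducts. KRT19 stood at 12.7 ± 1.79 CPM (SD, n = 4) in WT and 42.2 ± 7.43 CPM (SD, n = 5) in T348I samples. KRT19 rose by 1.66 and SOX9, a factor of biliary and progenitor cells, by 0.89 on the log2 scale. CFTR, a chloride channel of ducts, fell by 0.43 but lost its call without WT Dasa replicate 1 (-0.24). KRT7 and SPP1 did not pass, and EPCAM and AQP1 had 1 to 11 reads. The part of these markers in the factors' lower levels was not tested.

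Markers of cells that do not belong to a hepatoma culture were near 0, with exceptions. Of 5 leukocyte markers 4 had at most 10 reads per sample (PTPRC 0 to 2), while LYZ, lysozyme, stood at 803 to 1404 CPM and did not pass the test (0.032). LYZ was called higher in the dasatinib set (0.16) and lower in the Dasa set (-0.25), and higher without WT Dasa replicate 1 (0.16). Of 4 endothelial markers PECAM1 alone was tested and did not pass (0.13), and KDR had 0 to 1 read. Of 5 stromal markers COL1A1 alone was tested and rose by 0.52, and DCN had 0 to 2 reads. COL1A1 overlapped between the groups, at 2.65 to 6.52 CPM in WT and 3.62 to 8.18 CPM in T348I samples. Its fold was 0.71 in the dasatinib set and 0.28 in the Dasa set, which holds 1 WT sample. Of 9 transcription factors of other endodermal organs, 8 had at most 10 reads in any sample. The remaining one, CDX2, an intestinal factor, did not pass the test (-0.13; 0.11 without WT Dasa replicate 1).

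Genes that textbooks give as targets of these factors were counted in lists that share members. The lists hold genes such as G6PC1, APOA1 and TF whose fall was known from an earlier look at these data, so they are not independent evidence of direction. Of 16 HNF4A targets, 11 were tested and 10 fell (21.8% of all genes did), with a median log2 fold change of -0.95. G6PC1, the glucose-6-phosphatase of liver, fell by 2.23 (edgeR adjusted p = 2.01e-10). APOA1, of high-density lipoprotein, fell by 1.67 (edgeR adjusted p = 1.1e-07), LIPC, hepatic lipase, fell by 1.31 (edgeR adjusted p = 2.43e-09) and TF, transferrin, fell by 0.76 (edgeR adjusted p = 7.44e-09). APOB, the protein of very low density lipoprotein, was the exception (-0.033), and was called higher without WT Dasa replicate 1 (0.30). CYP7A1 and F9 had 0 reads, and TTR, OTC and CYP8B1 0 to 8, and were not tested. Without WT Dasa replicate 1, 10 targets were called lower and 1 higher (16.5% and 18.3% of all genes), and the median was -0.61. Without the set term 7 HNF4A targets were called lower, where 1116 of the 14617 genes tested were lower.

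Of 8 FOXA targets, 7 were tested, of which 6 fell and 1 rose (21.8% and 20.7% of all genes), with a median of -0.63. AFP, alpha-fetoprotein, fell by 0.57 (edgeR adjusted p = 7.78e-06), or by 0.38 without WT Dasa replicate 1. PCK1, an enzyme of glucose synthesis, fell by 0.95 (edgeR adjusted p = 0.00074), or by 0.54 without that sample. IGFBP1, which binds insulin-like growth factors, rose by 0.32 (edgeR adjusted p = 1.2e-05). Without WT Dasa replicate 1, 5 FOXA targets were lower and 1 higher (16.5% and 18.3% of all genes). Of 7 CEBPA targets, 5 were tested and 4 fell (21.8% of all genes did), with a median of -0.63. CPS1, the first enzyme of the urea cycle, fell by 0.25 (edgeR adjusted p = 0.00205), or by 0.12 without WT Dasa replicate 1, and ALB fell by 0.63 (edgeR adjusted p = 0.0137) and lost its call without that sample (-0.43). ALB also lost its call without T348I dasatinib replicate 2 (-0.55). SERPINA1 did not pass the test (-0.071) and was called higher without WT Dasa replicate 1 (0.13), where 3 CEBPA targets were lower and 1 higher (16.5% and 18.3% of all genes). Without the set term 2 FOXA targets and 1 CEBPA target were called lower, where 1116 of the 14617 genes tested were lower and 1234 higher. PCK1, CPS1, ALB and IGFBP1 were not called in that run.

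Of 7 NR5A2 targets only NR0B2, the corepressor SHP, and SCARB1, the lipoprotein receptor SR-BI, were expressed well enough to test. Neither passed (NR0B2 -0.33, edgeR adjusted p = 0.107; SCARB1 -0.048, edgeR adjusted p = 0.313). NR0B2 ranged from 3.79 to 8.46 CPM in WT and from 1.02 to 8.22 CPM in T348I samples, and its fold was -0.13 without WT Dasa replicate 1 (not called) and -0.48 without T348I dasatinib replicate 2 (called lower). CYP7A1, CYP8B1, ABCG5, ABCG8 and CETP had 0 to 1 read.

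**Figure D4:**
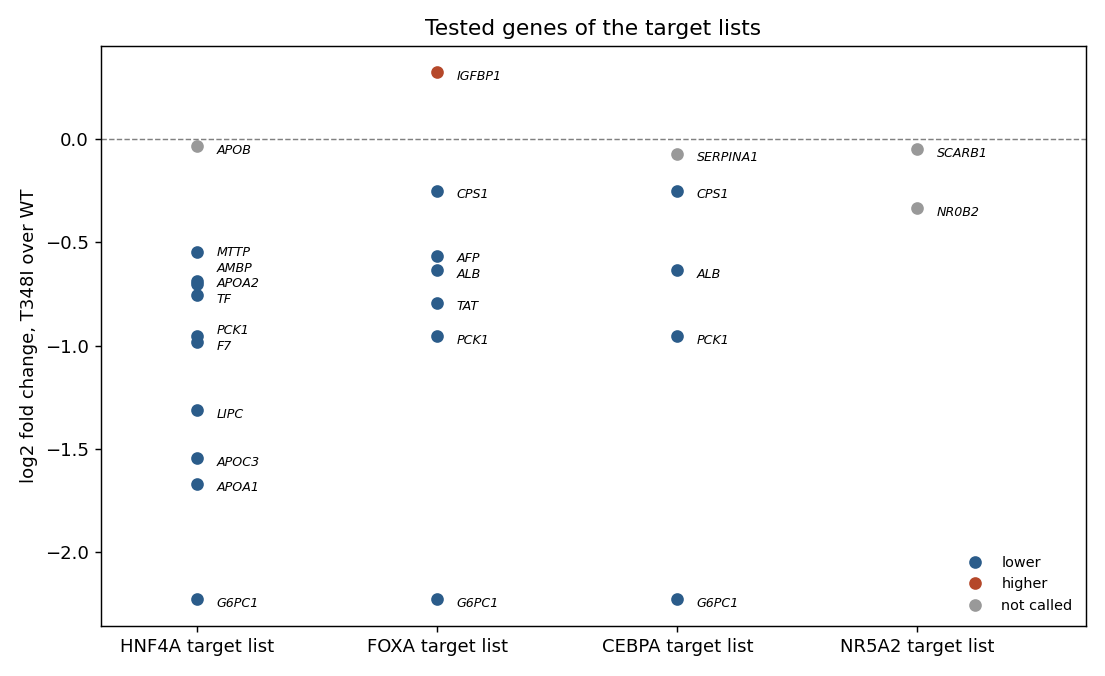
Log2 fold change, T348I over WT (vertical axis), of the tested genes of each target list (horizontal axis); blue is lower, red higher and grey not called, and a gene can stand in several lists. G6PC1 (-2.23) is the lowest point of 3 lists and IGFBP1 (0.32) the 1 gene above 0.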

How the data were processed

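The deposited files hold raw read counts per gene, 1 file per sample; the submitters' processing notes name STAR 2.5.1b, Trimmomatic 0.35, CASAVA 1.8.2 and the build GRCh38, and the release of the gene annotation is not given in the sources used here. The sense-strand column was used (the opposite strand held 5.48% to 5.91% as many gene reads). Rows that name no gene, 22.2% to 29.8% of a file, were left out, so multimapped reads count for no gene. The test was that of edgeR 4.0.16 under R 4.3.3 (filterByExpr, TMM, quasi-likelihood F-test, terms for set and group, Benjamini-Hochberg adjustment over 14617 genes, threshold 0.05), and a further model added their interaction, from which the values within each set come. CPM use TMM-adjusted library sizes. The number of reads limits precision. DESeq2 1.42.0 was an alternative. Symbols were given to 57392 identifiers. Coordinates are from GENCODE 29, which holds 57836 of the 58219 identifiers, 55008 of them with the same version number. The 8 factors and their named noncoding neighbours carry the same version. Chi-square per gene between samples of a group and set was 1.49 to 3.09, so none was a duplicate. The script was tested on simulated data. Members and lists were chosen with earlier results of these data known, and some genes of the lists are not reported here. Named genes were the 8 factors, YES1, all tested noncoding neighbours, up to 4 genes per list with the smallest p, and the 3 nearest profiles per factor.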

Additional observations from a re-analysis of the deposited data

Results flagged for a closer look

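WT Dasa replicate 1 lay far from the other WT samples for several genes, by a gap test within each group of 4 or 5 samples that chance meets in about 1 of 20 groups of like samples. The WT group joins 3 dasatinib samples with 1 Dasa sample, and 58.6% of all genes differed between the sets, so that rate does not hold for these genes. WT Dasa replicate 1 was low for FOXA3 (20.8 CPM) and NR0B2 (3.79 CPM), and high for ONECUT1 (79.4 CPM), PROX1 (184 CPM), G6PC1 (197 CPM), LIPC (86.5 CPM), CPS1 (2770 CPM), SCARB1 (279 CPM) and CDX2 (3.33 CPM). T348I dasatinib replicate 3 was low for ONECUT1 (39.3 CPM), and WT dasatinib replicate 2 was high for ALB (4.66 CPM). For 5 of the 9 genes in which WT Dasa replicate 1 stood apart (FOXA3, PROX1, NR0B2, SCARB1 and CDX2), both T348I Dasa samples lay on the same side of all T348I dasatinib samples, and for the other 4 (ONECUT1, G6PC1, LIPC and CPS1) they did not.

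The T348I fold differed between the sets by the edgeR interaction test, given here as the log2 fold in the Dasa set minus that in the dasatinib set. Among the 8 factors this held for HNF4A (-0.40), ONECUT1 (-0.48) and PROX1 (-0.38). It also held for CREB3L3 (-0.83), G6PC1 (-1.29), LIPC (-0.79), TF (-0.45), AFP (-0.61), PCK1 (-1.52), CPS1 (-0.41), NR0B2 (-1.30) and, in the other direction, YES1 (0.71). These were 12 of the 27 named genes examined, where 7.33% of all genes passed. Many of the 27 were picked for the smallest p in the T348I test on these data, so their share cannot be weighed against that of all genes. Other genes of the lists, such as APOB and APOA2, passed too but were not among the 27. All of these rest on the 1 WT sample of the Dasa set, whose own spread cannot be measured and is taken to equal that of the rest.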

How the results depend on the processing

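CEBPA, ONECUT1 and NR5A2 were called lower under every alternative run (DESeq2, 2 other scalings, no filter, no set term, the dasatinib set alone, replicate block, unstranded counts, and each sample left out), and FOXA3 was never called. Without the set term 2350 genes were called (1116 lower, 1234 higher) and 3 of the 8 factors; HNF4A (-0.25) and FOXA1 (-0.16) lost their calls, PROX1 was 0.033 and CDX2 0.082, and the lists gave 2 other hepatocyte factors higher, 2 FOXA targets lower and 0 higher, and 1 CEBPA target lower. The cause was not tested. In the dasatinib set alone FOXA1 lost its call (-0.13), FOXA2 was -0.025, PROX1 was called higher (0.12), PROX1-AS1 was 0.070, CDX2 was 0.11, and 1 HNF4A target and 1 CEBPA target were called higher. With no filter 1 NR5A2 target was called lower. Leaving out each sample gave 4 to 5 factors called lower, and PROX1 was called higher without WT Dasa replicate 1. The fold ranged from -0.23 to -0.13 for FOXA1, -0.026 to 0.073 for FOXA2 and -0.055 to 0.12 for PROX1. For CDX2 it ranged from -0.20 to 0.11 and for PROX1-AS1 from -0.14 to 0.070. The FOXA3 difference between sets ranged from -0.088 to 0.052. Leaving out each sample also gave 0 to 1 HNF4A targets higher, 0 to 1 CEBPA targets higher and 0 to 1 NR5A2 targets lower. With the replicate block PROX1 was 0.021 (not called in either fit) and no other call named here changed. The numbers pair the samples by label only: deviations of same-numbered dasatinib samples correlated at -0.0077, -0.0763 and 0.0033. All scalings left the median of all genes between -0.02 and -0.0036.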
